A study of Linum usitatissimum with 4 samples.

Results

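Differences in DNA methylation were described at cytosines assigned to 5 transcription factor genes of flax (Linum usitatissimum, variety JRF-2). These were Lus10032984.g, described as TCP13, Lus10039989.g, of the PLATZ family, Lus10022379.g, with a Myb/SANT-like DNA-binding domain, Lus10008010.g, described as MYB-related, and Lus10013917.g, described as a sterol regulatory element-binding protein. The suffix .g is left out from here on. They were found by their gene identifiers in the lists of cytosines whose methylation differed from the control. They hold 27 of the 1894 listings and 22 of the 1648 listed cytosines, and they are 5 of the 389 genes named in those lists. Because the genes were chosen from these lists, that they differ from the control is not a finding, and their values are given as a description with no test.

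Whole-genome bisulfite sequencing, which reads unmethylated cytosines as thymine, was done on 4 groups of seedlings of 21 days. The treated groups were seedlings heated to 40 ± 2 °C for 4 h on 5 days in a row, seedlings from seeds soaked in 1 mM 5-azacytidine for 24 h, and seedlings given that soak and then the heat. The control was neither soaked nor heated, and all groups grew at 22 ± 2 °C. Heated seedlings were returned to the growth temperature to recover, and each group is 1 library from shoot apices pooled from 10 seedlings. No value therefore has a replicate error, and how deeply each library or site was read is unknown. All 3 treated libraries were compared with the same control library.

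Plant cytosines are methylated in the CG, CHG and CHH contexts, where H stands for A, C or T. In Arabidopsis, MET1 copies CG methylation to the new strand, CMT3 keeps up CHG methylation, and CMT2 and the RNA-directed pathway keep up CHH methylation. The analogue 5-azacytidine is built into DNA and traps DNA methyltransferases. Transcription factors bind DNA near genes and raise or lower the transcription of those genes.

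Each listing is 1 cytosine with a difference in percentage points, read as treated minus control, and a q-value, the authors' p-value adjusted for multiple testing. With 1 library per group, a q-value here does not measure variation between libraries or plants. The files do not state the sign, and with the opposite coding "higher" and "lower" would trade places throughout. A cytosine belongs to the gene with the nearest start, however far it lies, and upstream distances carry a minus sign in the plots. A cytosine absent from a list missed the authors' limits and is not shown to be unchanged. Positions are deposited starts, which may be off by 1 bp, and no genome build is named in the sources used here.

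Of the 27 listings, 22 were lower and 5 higher than in the control library, and 25 were in the CHH context. Heat gave 9 listings, of which 5 were lower, beside 78.8% of all 184 heat listings. Of the 9, 5 lie in 1 stretch of 134 bp assigned to TCP13, and a difference between the shares was not tested. Of the 7 heat listings in CHH, 4 were lower, beside 89.4% of all 123. Treatment with 5-azacytidine gave 5 listings, all CHH and all lower, beside 90.8% lower among its 566 listings and 93.4% among its 455 CHH listings. The combined treatment gave 13 listings, all CHH, of which 12 were lower, beside 95.3% of its 1144 listings and 97.6% of its 1018 CHH listings. A gene whose sites are all lower is thus near the share of the whole list. The 5 higher listings belong to TCP13 and to the PLATZ-family gene. Of the 13 CHH sites that were higher after heat, 3 were assigned to these genes, at 9714, 18187 and 18219 bp from the starts. Of all 123 heat CHH listings, 5.69% belong to the 5 genes.

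Most differences were small. Of the 27 differences in the authors' deposited tables, 25 lay between 5.67 and 13.6 points in size, and the other 2, near the Myb genes, were -69.2 and -73.8 points. Over all listings 13.7% had a size of 20 points or more. The median size was 8.86 points after heat, 6.81 points after 5-azacytidine and 9.61 points after both. Over all listings of those comparisons, the median size was 11.5, 10.3 and 9.68 points.

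**Figure D1:**
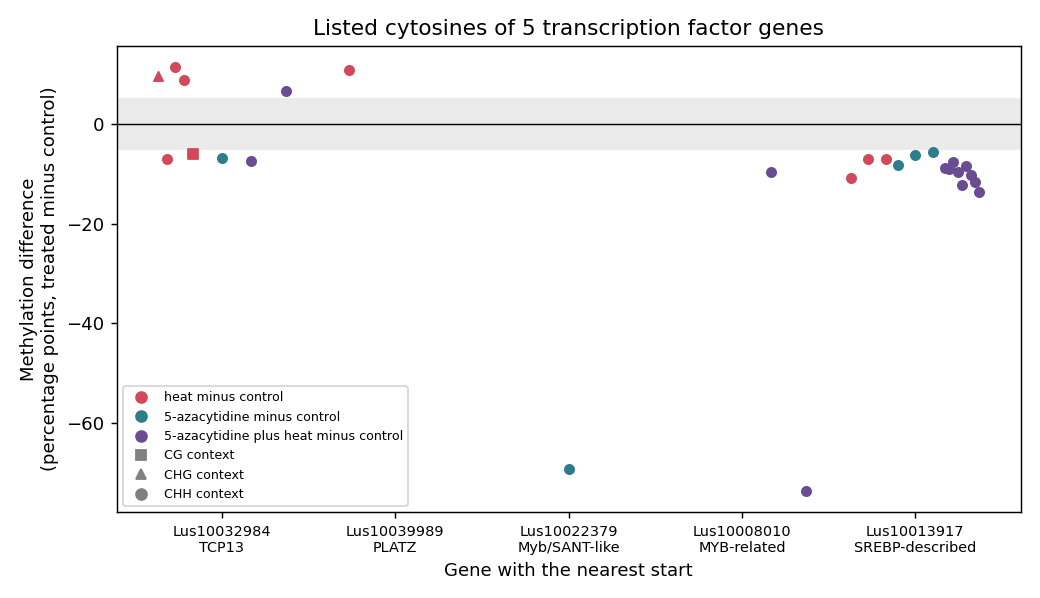
Methylation difference in percentage points, treated minus control, of each of the 27 listings (vertical axis), by gene (horizontal axis). Each point is 1 cytosine in 1 comparison, colour gives the comparison, shape the context, and the grey band from -5 to 5 points holds no listing. The only points above 0 belong to TCP13 and the PLATZ-family gene, and the Myb genes have 1 point each at -69.2 and -73.8.

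The gene with the most listings was Lus10013917, whose description names the family of the sterol regulatory element-binding proteins. In animals these are basic helix-loop-helix factors that switch on sterol and fatty acid synthesis. The same PANTHER family number, PTHR12565, stands in the tables beside Lus10006491, described as the plant basic helix-loop-helix factor bHLH74. The gene had 15 listings at 13 cytosines within 919 bp (Lu15, 1734958 to 1735877), from 2337 to 1418 bp upstream of its start. All 15 were CHH and all were lower than in the control library. Of the 389 genes, 22 had more listings, and the median gene had 2.

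Heat gave 3 of these listings. In the authors' deposited table they were -10.8 points at 2070 bp, -7.06 points at 1631 bp and -6.92 points at 1598 bp upstream, with q = 0.0259, 0.00759 and 0.00743. The site with the largest difference thus had the largest q-value of the 3. Treatment with 5-azacytidine also gave 3, which in the authors' deposited table were -8.18 points at 2337 bp, -6.19 points at 1751 bp and -5.67 points at 1698 bp upstream. Their q-values were 0.037, 0.0228 and 0.00151 in the authors' deposited table, so again the smallest difference had the smallest q-value.

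The combined treatment gave 9 listings in the same stretch. Farther than 2000 bp upstream, the authors' deposited table has -8.81 points at 2337 bp, -8.95 points at 2282 bp, -7.64 points at 2184 bp, -9.61 points at 2099 bp and -12.1 points at 2070 bp. Closer to the gene it has -8.48 points at 1776 bp, -10.3 points at 1773 bp, -11.6 points at 1526 bp and -13.6 points at 1418 bp upstream. The largest of these 9 differences are thus at the cytosine nearest to the gene and at the one 2070 bp upstream. Their q-values in the authors' deposited table ran from 0.00141, at 2070 bp, to 0.0448, at 1776 bp.

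At 2 of the 13 cytosines more than 1 comparison gave a listing. At 2070 bp the authors' deposited tables give -12.1 points after both treatments and -10.8 points after heat. At 2337 bp they give -8.81 points after both treatments and -8.18 points after 5-azacytidine, in the authors' deposited tables. These values share the control library, so they are no independent repeats of each other. The 13 cytosines lie 3 to 294 bp apart, with the widest gap between 2070 and 1776 bp upstream. The 15 listings are 1.63% of all heat listings (3), 0.53% of all 5-azacytidine listings (3) and 0.787% of all listings of the combined treatment (9), so the higher number after both treatments stands beside a longer list.

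**Figure D2:**
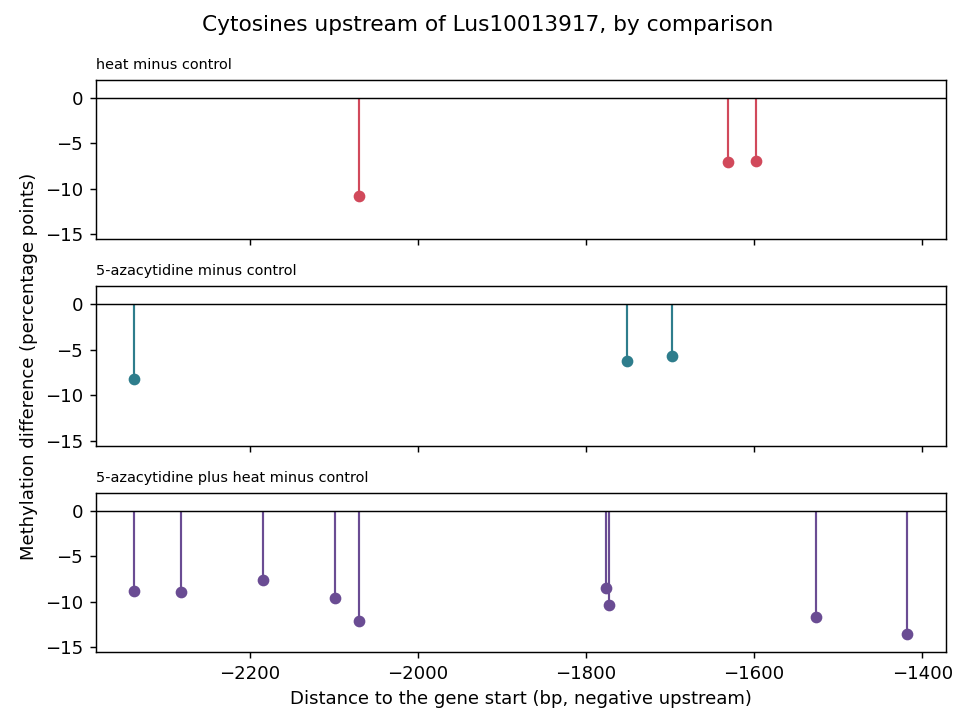
Methylation difference in percentage points (vertical axis) against distance to the start of Lus10013917 in bp, negative upstream (horizontal axis), with 1 panel per comparison and 1 stem per listed CHH cytosine. All stems point down, from -5.67 to -13.6 points, with 3, 3 and 9 stems in the panels.

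TCP13 belongs to the TCP family, named after TB1, CYC and PCF, and in Arabidopsis it takes part in leaf development. Its gene Lus10032984 had 8 listings at 5 cytosines within 134 bp (Lu4, 10983280 to 10983414). They lie 18132 to 18266 bp downstream of its start, so the assignment rests on that start being the nearest. Among the 5 genes it is the only one with listings in both directions, 4 higher and 4 lower, and the only one with CG and CHG sites.

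After heat, 3 sites were higher in the authors' deposited tables: 9.65 points at a CHG site 18132 bp, 11.5 points at a CHH site 18187 bp and 8.86 points at a CHH site 18219 bp downstream. The other 2 were lower in the authors' deposited tables, with -6.96 points at a CHH site 18135 bp and -6.04 points at a CG site 18266 bp downstream. Higher and lower sites are therefore mixed within the 134 bp, and the CHG and CHH sites that differ in direction at the near end are 3 bp apart. The rise at 18187 bp had q = 6.47e-07 in the authors' deposited table, which ranked 6 among the 123 heat CHH listings. The CHG site had q = 1.55e-05 and ranked 5 of 13 in the authors' deposited table. The other 3 sites had q-values from 0.0113 to 0.0387 in the authors' deposited tables.

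After 5-azacytidine the only listing of TCP13 was the CHH site at 18135 bp, with -6.81 points (q = 0.0209) in the authors' deposited table. After both treatments it was -7.31 points (q = 0.00605) in the authors' deposited table, beside -6.96 points (q = 0.0387) after heat. This site was 1 of 30 positions listed in all 3 comparisons, and the control library that they share enters each of these values. Its deposited strand is + in the heat comparison but - after 5-azacytidine and after both treatments, a conflict left unresolved here. The site at 18187 bp was listed again after both treatments with 6.70 points (q = 0.0466), beside 11.5 points after heat, in the authors' deposited tables. A difference between those values was not tested. The nearest listed cytosine outside these 5 is 185863 bp away.

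**Figure D3:**
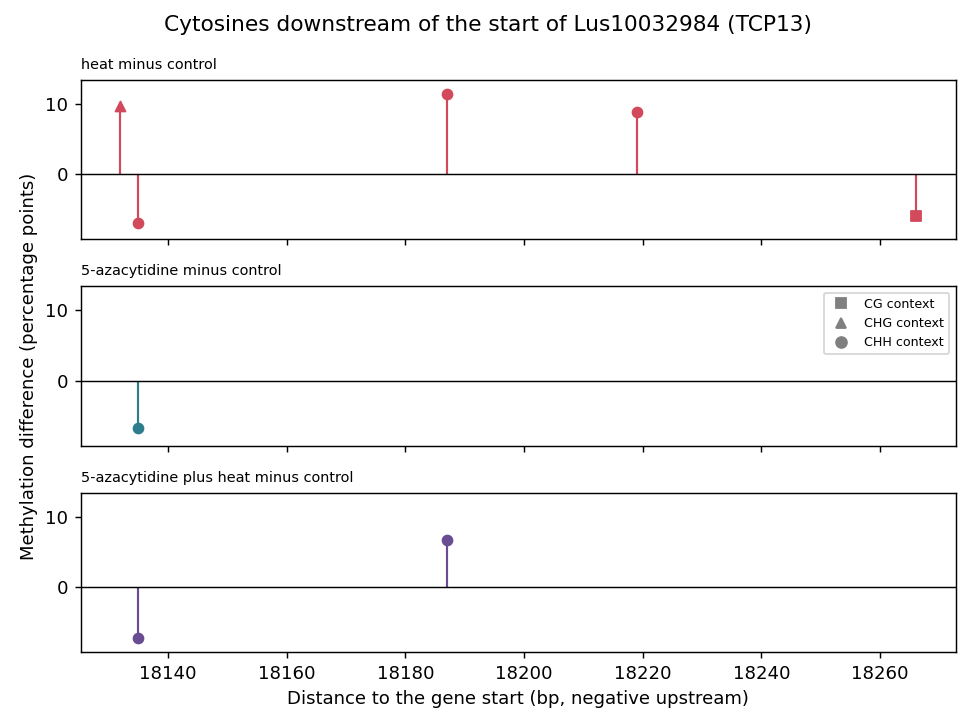
Methylation difference in percentage points (vertical axis) against distance downstream of the start of Lus10032984 in bp (horizontal axis), with 1 panel per comparison and 1 stem per listed cytosine. Shape gives the context. Heat has 3 stems up and 2 down, 5-azacytidine 1 down, and both treatments 1 down and 1 up.

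MYB proteins bind DNA through repeats of a helix-turn-helix fold and in plants regulate development, stress responses and phenylpropanoid synthesis. The MYB-related gene Lus10008010 had 2 CHH listings, both after 5-azacytidine plus heat. In the authors' deposited table the first (Lu7, 6518186) was -73.8 points (q = 0.0306) and lay 1664 bp upstream. The second (Lu7, 6513078) was -9.68 points (q = 0.0367) and lay 6772 bp upstream in the authors' deposited table. By size the first ranked 17 of 1018 CHH listings, yet by q-value it ranked 706. A large difference thus stood beside one of the larger q-values of the list, and the reads per site were not analysed here.

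The second site lies between 2 genes that point away from each other, as the signs of their distances give. The start of Lus10008011, which has no family description, is 6882 bp from the site, and that of Lus10008010 is 6772 bp, so only 110 bp decide the assignment. The nearest listing of Lus10008011 is 93 bp away. Between both starts, 13654 bp apart, there were 20 listings, all lower than in the control library. Some of these cytosines were listed again in another comparison with the same control library. Of all listings in the series, 78.8% after heat, 90.8% after 5-azacytidine and 95.3% after both treatments were lower. Counting also the sites just beyond the start of Lus10008011, there were 26 listings, 17 after both treatments, 6 after 5-azacytidine and 3 after heat. Apart from the 2 sites of Lus10008010, their differences ran from -30.5 to -5.46 points with a median of -9.56 points in the authors' deposited tables. The -9.68 points of the second site are close to that median, whereas the -73.8 points of the first stand alone, 5108 bp from any other listed cytosine.

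**Figure D4:**
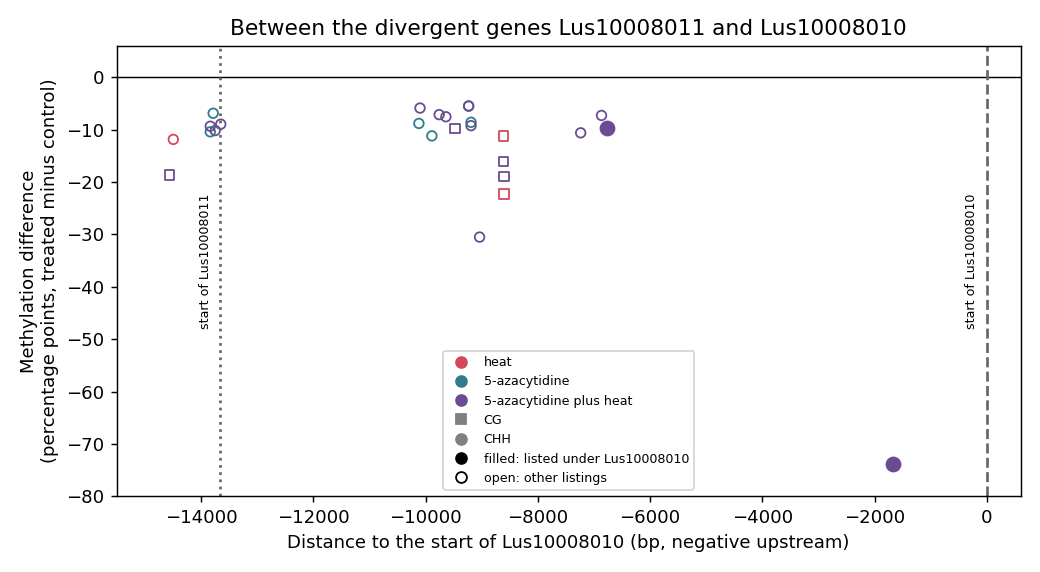
Methylation difference in percentage points (vertical axis) against distance to the start of Lus10008010 in bp, negative upstream (horizontal axis), for all listings around the divergent genes Lus10008011 and Lus10008010. Filled points are listed under Lus10008010 and open points are other listings. All lie below 0, and the filled point at -73.8 points is apart from the rest.

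The Myb/SANT-like domain is a plant relative of the MYB fold. Its gene Lus10022379 had 1 listing, at a CHH cytosine (Lu14, 13807402) lying 265 bp past the start, the closest to a start among the 5 genes. After 5-azacytidine it was -69.2 points (q = 0.0361) in the authors' deposited table. By size it ranked 11 of the 455 CHH listings, and by q-value 366. It is also isolated, since the nearest other listed cytosine is 639617 bp away, while the median over all listed cytosines is 64.5 bp.

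PLATZ proteins are plant zinc-binding proteins that bind A/T-rich DNA. The PLATZ-family gene Lus10039989 had 1 listing, a CHH site 9714 bp upstream of its start (Lu10, 9170936). After heat it was 11.0 points (q = 0.0392) in the authors' deposited table, and it ranked 64 of 123 CHH listings by size and 109 by q-value. The nearest other listed cytosine is 598464 bp away. This site and that of Lus10022379 are among 48 of the 1648 cytosines with no other listed cytosine within 500000 bp. Each therefore rests on a single cytosine in a single comparison, as do 169 of the 389 genes (43.4%) with 1 listing.

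**Figure D5:**
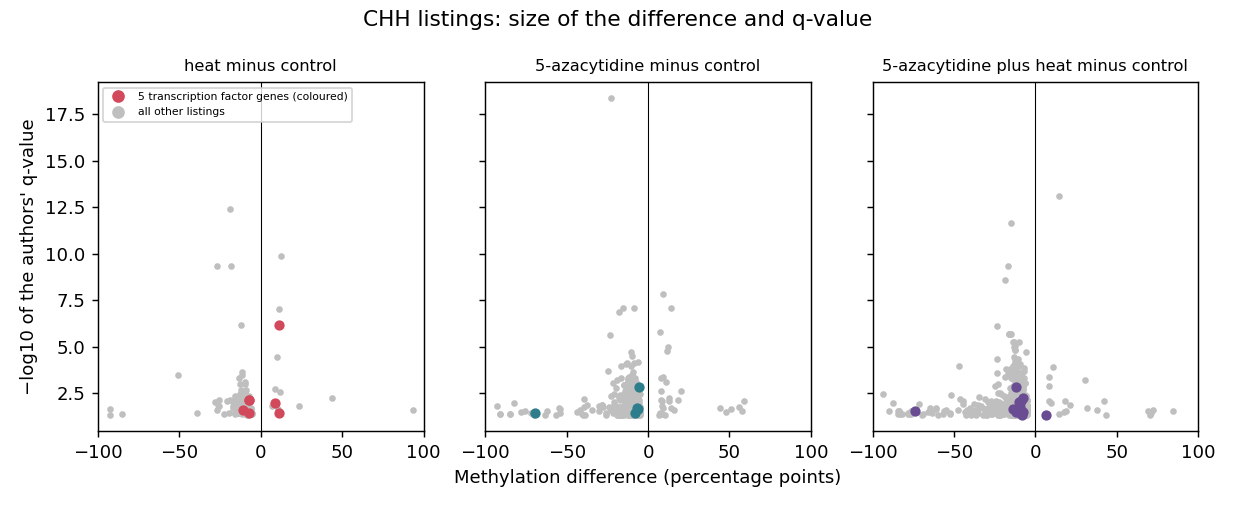
The −log10 of the authors' q-value (vertical axis) against the methylation difference in percentage points (horizontal axis) for CHH listings, with 1 panel per comparison. Coloured points are the 5 transcription factor genes and grey points all other listings. The points at -69.2 and -73.8 lie low in their panels, at ranks 366 of 455 and 706 of 1018 by q-value, and the highest coloured point is the TCP13 site with q = 6.47e-07 after heat.

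By distance, 10 of the 22 cytosines were within 2000 bp of the gene start, namely 8 of Lus10013917 and 1 each of Lus10022379 and Lus10008010. Another 7 lay between 2000 and 10000 bp, and the 5 of TCP13 lay farther. Of all 1576 listed cytosines with a gene, 18.9% were within 2000 bp and 60.3% within 10000 bp. Of the 22 cytosines, 18 were listed in 1 comparison, 3 in 2 and 1 in 3.

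Other genes for transcriptional regulators were found by 38 words searched in family descriptions, which matched 26 of 262 described genes, all 5 genes above included. Each match was then read, and another 14 were taken from their descriptions as DNA-binding regulators of transcription. DNA binding itself was not checked, and the GRAS-domain genes among them are described by that domain alone. The 14 genes had 24 listings, of which 23 were lower. Heat gave 5 listings assigned to 4 of these genes, all lower, beside 78.8% of all heat listings. Treatment with 5-azacytidine gave 6 listings at 5 genes, 5 of the listings lower, beside 90.8% of all its listings. Both treatments gave 13 at 9 genes, all lower, beside 95.3% of all listings of that comparison. A difference from those shares was not tested. The 1 higher listing, named after its value was seen, lay near the TGA1-related bZIP gene Lus10037550. It was a CG site with 91.7 points (q = 0.0462) after 5-azacytidine in the authors' deposited table. TCP13 and the PLATZ-family gene thus hold 5 of the 6 higher listings of these 19 genes, and 8 and 1 of their 51 listings. After heat came 5 of the 8 and the 1, but only 5 of the 24 listings of the other 14 genes. Heat is also the comparison with the smallest share of lower sites over all listings, so these counts mix treatments with unlike shares. The 4 higher listings of TCP13 lie in 1 stretch of 134 bp, and its site at 18187 bp is among them in 2 comparisons that share the control library. No test was made, since the 5 genes were chosen from the same tables.

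Of the 14 genes, 5 had more than 1 listing. The GRAS-domain gene Lus10014786, of a family that includes the gibberellin-signalling repressors, had 5, the largest being -7.38 points 2954 bp upstream after both treatments in the authors' deposited table. Lus10004796, described as subunit B-5 of nuclear factor Y, which binds CCAAT boxes, had 3. They went down to -39.8 points (q = 0.0489) 12113 bp downstream of its start after 5-azacytidine in the authors' deposited table. Lus10016948, another MYB-related gene, had 3, down to -10.5 points 3044 bp upstream after both treatments in the authors' deposited table. The zinc finger gene Lus10000801 and the MYB-like gene Lus10019707 had 2 each, down to -14.8 and -10.6 points after both treatments in the authors' deposited table. The remaining 7 matched genes, with 16 listings, all lower, were not taken as DNA-binding regulators and were counted apart. Of the 16, 9 came after both treatments, 6 after 5-azacytidine and 1 after heat, where 95.3%, 90.8% and 78.8% of all listings were lower. The 7 genes include Lus10012411, described as a subunit of the transcription initiation factor TFIID, and Lus10008393, described as transcription factor GTE1. The latter, named after its value was seen, had -93.75 points (q = 0.00352) after both treatments in the authors' deposited table, 11532 bp downstream of its start. Of those 16 listings, 10 lay near Lus10004454, described as the RNA polymerase I initiation factor Rrn7. The words missed Lus10011660, described as related to the repressor KAN1, with -27.2 and -29.0 points 11489 and 11180 bp downstream of its start after both treatments in the authors' deposited table.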

How the data were processed

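The tools Trimmomatic, FastQC, BWA, MethylDackel and methylKit are named in the submitters' processing notes, without versions or roles in the sources used here. What the authors deposited are 9 tables, covering 3 treatments against the control in 3 contexts. Per the file headers, the columns are a p-value and q-value, a methylation difference and a distance to a gene start. The deposited difference is a score in percentage points, computed by the authors. Levels per library and coverage were not analysed here, and with 1 library per group no test across samples was made. The sign was read by the convention of methylKit, which the files do not state. Each listing spans 1 bp. The largest q-value was 0.0499 and the smallest size 5.01 points, so limits of 0.05 and 5 points were taken.

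Rows were read with Python 3.11.15 and pandas 2.3.3 and chosen by Lus identifier in 8 tables. Gene columns of the CG table for 5-azacytidine plus heat were not used, since 47 of its 48 rows with a Lus identifier repeat a gene and distance of the heat CG table and 0 of these have the same position. Its only row with one of the 5 genes, on Lu14 (8137654), repeats the TCP13 distance of 18266 bp. The strand column was not used to identify cytosines, so a cytosine is identified by its position alone. Strand entries are given only for the TCP13 site at 18135 bp, where they conflict. For each cytosine, ranks within its table and the distance to the nearest other listed cytosine were computed. Named are all sites of the 5 genes and, of the other regulators, the largest difference of those with the most listings. The genes and lists were chosen with earlier results of these data known. Alternatives were stricter q-values, sizes and distances, joined CG and CHG pairs, and added sites of the unused table.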

Additional observations from a re-analysis of the deposited data

How the results depend on the processing

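No paired analysis was possible because each group is 1 library. Over the 3 comparisons, the number of listings, the number lower and the median size of difference were recomputed under 8 alternatives. Joining CG and CHG pairs and adding sites of the unused CG table could not change these values, since the 5 genes hold 1 CG and 1 CHG listing and 0 sites of that table lie among theirs, so both say nothing about stability. The stricter limits leave fewer sites by construction. With q below 0.01, heat kept 4 listings (2 lower), 5-azacytidine 1 (1 lower) and both treatments 4 (4 lower). With q below 0.001, heat kept 2 (0 lower), both of TCP13 and higher than control, and the others 0. At 10 points or more, heat had 3 (1 lower), 5-azacytidine 1 (1 lower) and both treatments 5 (5 lower). At 20 points or more, heat had 0 (0 lower), 5-azacytidine 1 (1 lower) and both treatments 1 (1 lower). The median size after 5-azacytidine was 69.2 points at both of these limits, against 6.81 as reported, and after both treatments it was 73.8 points at the 20-point limit, against 9.61, each being the value of the single site left. Within 2000 bp of a start, heat had 2 (2 lower), 5-azacytidine 3 (3 lower) and both treatments 5 (5 lower). Within 10000 bp heat had 4 (3 lower), because the TCP13 sites drop out. The mixed direction after heat thus rests on sites 9714 bp and farther from a start. The depth per site is unknown and limits all values.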
